A study of Mus musculus with 3 samples.

Results

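The 42 genes described here code for actin filaments, the non-muscle and muscle myosins that pull on them, the proteins that cross-link, stabilise or take filaments apart, and the transcription factor SRF with its cofactors. They were chosen by gene symbol from a list of such genes, with no rule on measured values, but earlier results of these data were known. All 42 were found among the 24421 gene lines of the count tables. The data come from SB28, a transplantable mouse glioblastoma line on the C57BL/6 background, sequenced as 3 RNA-seq libraries of 1 group. The labels name no control, treatment, time, age, passage or culture condition, and no statement that the replicates came from separate cultures. The SDs below therefore cover only the spread between these libraries, which may be technical. The line is grown from tumour cells and its label gives brain as the source.

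Actin monomers assemble into filaments, and myosin II, a motor built from heavy and light chains, slides those filaments past each other to give contraction. In non-muscle cells this machinery sets cell shape, adhesion and migration, while smooth and striated muscle use isoforms of their own from the same families. SRF binds the CArG box, a short AT-rich motif, in many of these genes. Its cofactors MRTF-A and MRTF-B, listed in the files as Mkl1 and Mkl2, are held by free actin monomers and reach the nucleus as filaments form, so the pathway reads the state of the actin it helps to supply. In glioma, non-muscle myosin and its regulators are known for their part in invasion through brain tissue.

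Levels are given as counts per 1000000 counts assigned to genes (CPM), in the order of replicates 1, 2 and 3, or as mean ± SD (n = 3). Folds between genes are given per length, as CPM per kb of annotated exon, and an order by CPM, which favours long transcripts, is named as such. The libraries held 36019009, 28990128 and 32632858 gene counts, and a further 15.2%, 15.2% and 17.1% of all reads in the tables were not assigned to a gene. The members took 3.23%, 3.19% and 3.45% of the gene counts. Replicate 3 stood apart from the other two. Between replicates 1 and 2 a chi-square test against counting noise called 2.01% of 12746 genes, and 12.5% had an unadjusted p under 0.05. They may be technical replicates of 1 RNA, which the labels do not say. Each mean ± SD counts them as 2 libraries, so it may understate the spread between cultures. With replicate 3 it called 64.0% (against replicate 1) and 62.8% (against replicate 2). In bulk RNA, fewer cells of a type and less RNA per cell cannot be told apart.

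Most of the list was expressed, and at high levels. Detection meant that no library fell below 1 CPM, and 35 of the 42 members (83.3%) met this, against 46.6% of all gene lines. Of the others, Actn3 lay on both sides of 1 CPM and 6 members (Actc1, Actg2, Actn2, Myh11, Myh14 and Tagln3) lay below it in every library. The median level of the 35 detected members was 131 CPM per kb, against 7.57 for all 11317 detected genes with a known length, and over all 42 members it was 75.4. By CPM, 9 members stood among the 100 most abundant genes, with Actg1 at rank 3, Flna at rank 6 and Actb at rank 9. Per length, 21 of the 35 lay at or above the 95th percentile of detected genes and 5 lay below the 50th: Mkl2, Acta1, Cnn1, Lmod1 and Mylk.

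**Figure D1:**
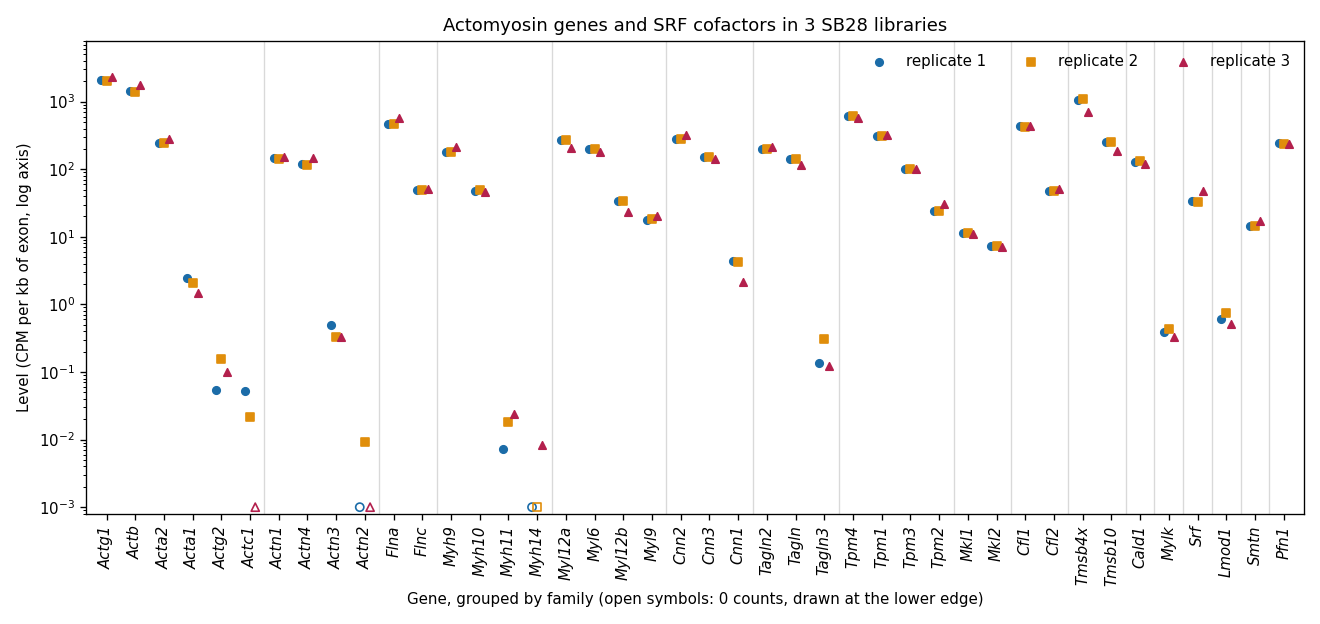
Level of each member in CPM per kb of exon on a log axis, grouped by family, with 1 symbol for each of the 3 libraries and open symbols for 0 counts. Most families hold 1 or more members above 100 CPM per kb. Actc1, Actg2, Actn2, Actn3, Myh11, Myh14, Tagln3, Mylk and Lmod1 lie below 1 CPM per kb in every library.

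Of the 42 members, 37 had a promoter in the RefSeq table (GRCm38.p6), which holds 250 bases before and 50 after each annotated start. It was searched on both strands for the CArG box, the SRF binding motif. Actb, Actg2, Actn3, Myh11 and Tagln had no promoter there, so whether they carry a box was not examined. At least 1 box stood in the promoters of 7 of the 37 (18.9%), against 1.81% of all 27025 symbols in the table. Many of the listed genes are known to be bound by SRF, so the higher share is not independent of how the list was made. The windows below show 20 bases on each side of the box, which is in capitals, for members from the highest to the lowest level, because boxes were found both in abundant members and in members with almost no counts. Each is printed 5′ to 3′ on the strand of its gene, and the Myl6 window comes from the second of its 2 promoters.
Actg1 (chr11:120348556-120348605, minus strand): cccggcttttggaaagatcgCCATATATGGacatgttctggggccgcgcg
Cnn2 (chr10:79988524-79988573, plus strand): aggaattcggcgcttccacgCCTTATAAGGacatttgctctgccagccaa
Myl6 (chr10:128493030-128493079, minus strand): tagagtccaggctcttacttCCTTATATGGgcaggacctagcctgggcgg
Myl9 (chr2:156775283-156775332, plus strand): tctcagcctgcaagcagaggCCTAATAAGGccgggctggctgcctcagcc
Acta1 (chr8:123894819-123894868, minus strand): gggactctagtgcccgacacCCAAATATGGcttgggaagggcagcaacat
Actc1 (chr2:114052893-114052942, minus strand): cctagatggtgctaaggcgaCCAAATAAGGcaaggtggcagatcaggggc
The Srf promoter held 2 boxes and is printed for the 250 bases before the start, with both boxes in capitals.
Srf (chr17:46556163-46556412, minus strand): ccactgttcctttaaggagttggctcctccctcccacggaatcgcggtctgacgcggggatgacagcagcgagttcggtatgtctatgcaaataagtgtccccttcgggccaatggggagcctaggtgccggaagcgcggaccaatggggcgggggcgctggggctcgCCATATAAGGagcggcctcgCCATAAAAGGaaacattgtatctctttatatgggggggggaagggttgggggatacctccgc

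All 8 boxes began between 161 and 47 bases before the start, at −90 in Actg1, −56 in Cnn2, −50 in Myl6, −161 in Myl9, −73 in Acta1, −47 in Actc1, and −82 and −62 in Srf. The genes that carry them ran from 5625 ± 428 CPM for Actg1 to 0.0393 ± 0.0418 CPM for Actc1, so a box in this window did not go with one range of levels. Of the 33 detected members with a promoter, 6 had a box, and of the 4 others 1 did. When 1 mismatch was allowed among the inner letters, 12 of the 37 members and 11.3% of all symbols had a match, with Acta2, Flnc, Myl12a, Tpm3 and Mkl1 joining the list. A match describes letters only.

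**Figure D2:**
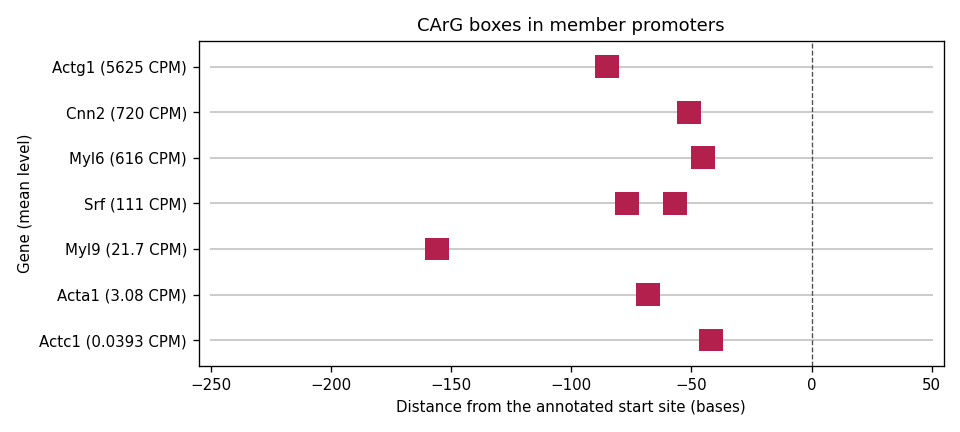
Position of each CArG box (filled block) along the promoter, in bases from the annotated start site at 0. Shown are the 7 of the 37 members searched that have one, ordered by mean CPM. The 8 boxes lie between −161 and −38, and the genes range from 0.0393 to 5625 CPM.

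The actins were led by the cytoplasmic pair Actg1 and Actb, which build the filaments of nearly all cells. Actg1 stood at 5471, 5295 and 6108 CPM and Actb at 3910.0, 3745 and 4686 CPM. Both were highest in replicate 3. Per length, Actg1 (2116 ± 161 CPM per kb) lay 1.38-fold above Actb (1535 ± 188), with a range of 1.31 to 1.43 over libraries, and the 2 genes made up 54.2% ± 0.952 and 39.2% ± 1.05 of the summed actin level. Of the distinct 50-base stretches of the Actg1 transcripts, 36.3% also occur in annotated transcripts of 21 other genes, against 9.12% for Actb. Reads from such stretches may have been left out, and their effect on this ratio was not tested.

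Acta2, the actin of smooth muscle cells and myofibroblasts, was the third actin at 538, 531 and 613 CPM, again highest in replicate 3. It gave 6.54% ± 0.107 of the actin level per length, a share that kept within 6.45% and 6.66% in all 3 libraries. Acta1, the skeletal muscle actin, stood at 3.83, 3.17 and 2.24 CPM, and Acta2 lay 129-fold above it per length (range 97.8 to 190.5). The cardiac actin Actc1 had 3, 1 and 0 counts and the enteric smooth muscle actin Actg2 had 3, 7 and 5. Over the pooled libraries Actg1 lay 83682-fold above Actc1 per length (exact 95% interval 32683 to 307130.0, counting error only) and 21474-fold above Actg2 (13019.6 to 38368). The smooth muscle actins thus split, with Acta2 abundant and Actg2 near 0 in the same libraries.

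Alpha-actinins cross-link actin filaments. The non-muscle forms Actn1 (813, 794 and 841 CPM) and Actn4 (722, 705 and 893) were near each other. Per length Actn1 was 1.18-fold above Actn4 (range 1.04 to 1.247), which was not larger than the spread between replicates. On the log2 scale the ratio was 0.32 in replicates 1 and 2 and 0.06 in replicate 3, and without replicate 3 it exceeded the spread. Its mean over the libraries was 0.23, but 0.14 with the longest transcript as length and 0.09 without length. The muscle forms were low, with Actn3 at 1.44, 0.966 and 0.94996 CPM and Actn2 at 1 count in all. Filamin A (Flna), which joins filaments into networks and ties them to integrins, reached 4359, 4363 and 5343 CPM and was highest in replicate 3. The muscle filamin Flnc, at 461, 462 and 482 CPM, lay 9.96-fold below Flna per length (range 9.44 to 11.1).

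The myosin motor was of the non-muscle type. Myh9, the heavy chain of non-muscle myosin IIA, stood at 2350.5, 2358 and 2799.7 CPM, and Myh10, that of IIB, at 506, 512 and 477 CPM. Replicate 3 was the highest library for Myh9 and the lowest for Myh10. Myh9 lay 4.05-fold above Myh10 per length (range 3.73 to 4.75). The smooth muscle heavy chain Myh11 had 2, 4 and 6 counts, and Myh14, the heavy chain of IIC, had 0, 0 and 2. Over the pooled libraries Myh9 lay 11971-fold above Myh11 per length (exact 95% interval 6853 to 23168). In these libraries 80.1% ± 2.13 of the heavy chain level was Myh9 and 19.9% ± 2.13 was Myh10.

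Each heavy chain carries an essential and a regulatory light chain. Myl6, the essential chain of non-muscle and smooth muscle myosin, stood at 642, 624 and 582 CPM. Of the regulatory chains, Myl12a reached 908, 913 and 699 CPM, Myl12b 94.1, 94.3 and 65.1, and Myl9, the form prominent in smooth muscle, 20.5, 21.3 and 23.3. Myl12a and Myl12b were lowest in replicate 3 and Myl9 was highest there. Per length the order was Myl12a (250.02 ± 36.3 CPM per kb), Myl6 (193 ± 9.65), Myl12b (30.5 ± 6.07) and Myl9 (18.7 ± 1.26). Myl6 lay 6.43-fold above Myl12b. Myl12a lay 1.28-fold above Myl6 (range 1.14 to 1.39). This exceeded the spread, but leaving out replicate 1 (0.33 on the log2 scale) or replicate 2 (0.31) ended the call. The same log2 ratio was 0.36 as reported, 1.09 with the longest transcript as length and 0.44 without length. Myl12b and Myl9 differed 1.61-fold (range 1.17 to 1.93), which was not larger than the spread. That pair exceeded it without replicate 3 (0.92 on the log2 scale), with the longest transcript as length (1.02) and without length (1.94). Myl12a and Myl12b are neighbours on chromosome 17, at 70993656 to 71002878 and 70973133 to 70990890, and share 50-base stretches (6.38% and 8.76% of theirs occur elsewhere). Exons of other annotated gene entries, some on the same strand, also overlap 19.9% and 26.7% of their exon length. Their split is therefore uncertain.

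Mylk, one of the kinases that phosphorylate the regulatory light chain, was low. It stood at 4.39, 4.93 and 3.71 CPM, which is 0.386 ± 0.0545 CPM per kb and the 2.39th percentile among detected genes. Its 3 libraries did not differ beyond counting noise (adjusted p = 0.11). Caldesmon (Cald1), which binds actin and tropomyosin and restrains the motor, was abundant at 1551, 1583 and 1439 CPM.

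**Figure D3:**
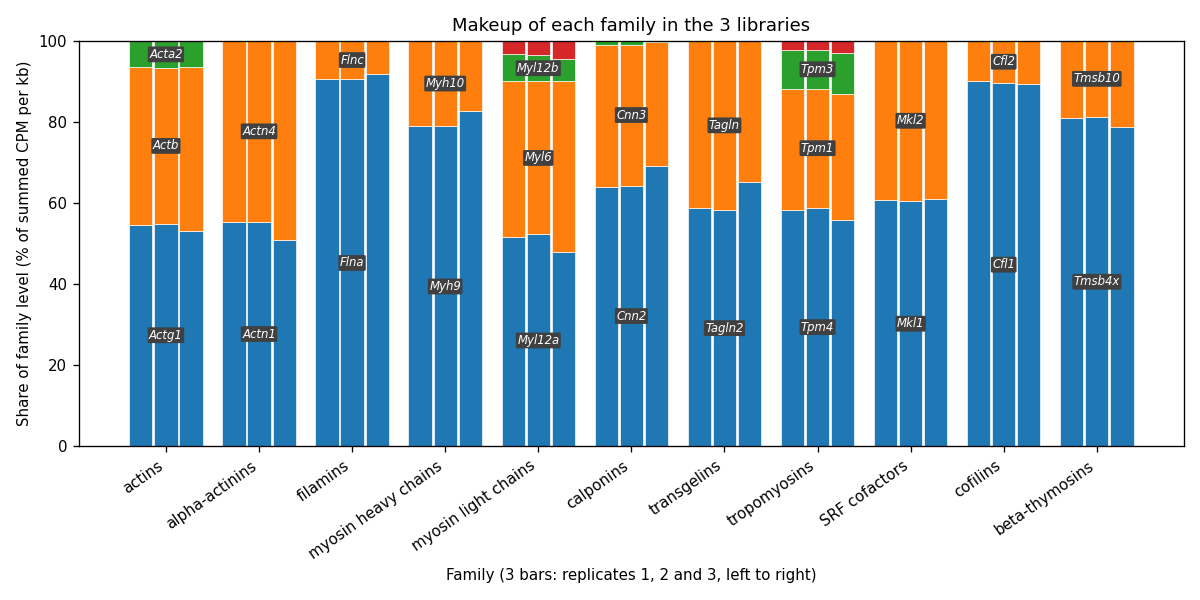
Share of each member in the summed CPM per kb of its family, in percent, with 3 bars per family for replicates 1, 2 and 3; members above 5% are named. In each family the leading member is the same in all 3 libraries, and the actin, SRF cofactor and cofilin bars are nearly equal in height between libraries.

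Calponins and transgelins bind along the filament and share a calponin repeat. Cnn2 (691, 685 and 785 CPM) and Cnn3 (467, 457 and 425 CPM), the broadly expressed calponins, were abundant. Per length Cnn2 lay 1.97-fold above Cnn3 (range 1.83 to 2.28). On the log2 scale this was 0.98, but 0.53 with the longest transcript as length and 0.68 without length. Cnn1, a marker of differentiated smooth muscle, was low at 12.1, 11.4 and 5.82 CPM, and Cnn3 lay 43.5-fold above it (34.8 to 65.6). Replicate 3 was the highest library for Cnn2 and the lowest for Cnn3 and Cnn1. Tagln2, the transgelin of non-muscle cells, stood at 415, 411 and 441 CPM. Tagln, also called SM22 and used as an early smooth muscle marker, was lower at 278, 280.0 and 226 CPM. Tagln2 lay 1.55-fold above it per length (1.40 to 1.86). Exons of Gm48529 and Pcsk7 on the opposite strand overlap 67.9% of the annotated Tagln exon length, and without a stated strand setting their reads cannot be told apart from those of Tagln. Opposite-strand exons also overlap 17.7% of the exon length of Cnn3, 16.5% of Cfl1 and 16.3% of Smtn. The neuronal Tagln3 had 6, 11 and 5 counts.

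Tropomyosins lie in the groove of the filament and set which motors and regulators can bind. All 4 were detected, with Tpm1 at 2002, 1983 and 2051 CPM, Tpm4 at 1340.2, 1353 and 1246, Tpm3 at 617, 608 and 619.5, and Tpm2 at 69.1, 69.3 and 89.9. Tpm2 was the 1 tropomyosin with a clear step, being 1.31-fold higher in its highest library, replicate 3, than in its lowest. Per kb of all annotated exons Tpm4 (596 ± 26.6) lay 1.92-fold above Tpm1 (310.3 ± 5.41), but this order depended on the length used. The log2 ratio was 0.94 with the union of exons, −0.18 with the longest transcript and −0.62 without length, so the order of Tpm1 and Tpm4 is not settled. Tpm1 lay 3.07-fold above Tpm3 (3.05 to 3.11) and Tpm3 3.89-fold above Tpm2 (3.29 to 4.27). The size of the Tpm3 to Tpm2 ratio also depended on length. On the log2 scale it was 1.96 with the union of exons, 2.90 with the longest transcript and 3.02 without length. Annotated transcripts of 5 other genes share 23.2% of the Tpm3 50-base stretches.

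The proteins that feed and dismantle filaments were all expressed. Cofilin severs old filaments, and its non-muscle form Cfl1 (1236, 1182 and 1244 CPM) lay 8.72-fold above the muscle form Cfl2 (155, 158 and 169) per length (range 8.44 to 9.14). Profilin (Pfn1), which loads monomers onto growing ends, stood at 585, 562 and 578 CPM. The beta-thymosins, which hold monomers in reserve, were led by Tmsb4x at 1472, 1487 and 954 CPM, 4.07-fold above Tmsb10 (325, 321 and 239) per length (3.71 to 4.31). Tmsb4x was the third member per length at 951 ± 222 CPM per kb, after Actg1 and Actb, and both thymosins were lowest in replicate 3. Of the Tmsb10 stretches, 27.02% occur in other annotated transcripts, and of the Tmsb4x stretches 0%.

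SRF and its actin-regulated cofactors were present at moderate levels. Srf stood at 97.2, 95.9 and 139.9 CPM, 1.47-fold higher in replicate 3 than in replicate 2 after scaling. Mkl1 stood at 69.4, 68.5 and 67.7 CPM and Mkl2 at 66.0, 65.8 and 63.7, and neither differed between libraries beyond counting noise (adjusted p = 0.82 and 0.62). Per length Mkl1 lay 1.55-fold above Mkl2 (range 1.53 to 1.56), and without length the ratio was 1.05. The step in Srf was thus not seen in its cofactors. The smooth muscle filament nucleator leiomodin, Lmod1, was low at 2.42, 2.97 and 1.99 CPM, and smoothelin (Smtn), a filament-binding protein of contractile smooth muscle, stood at 63.9, 63.7 and 74.9.

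In all, 18 neighbouring pairs within families were compared by the log2 ratio of length-scaled counts (0.5 counts added). The rule for a ratio larger than the spread was the same sign in each library and a mean above 2 SD. This held for 16 pairs, with Actn1 to Actn4 and Myl12b to Myl9 as the exceptions. Of the 16, Tpm4 to Tpm1 changed direction with the length used. Myl12a to Myl6 lost its call when replicate 1 or replicate 2 was left out. Flipping signs in an exact permutation test, two-sided, gave p = 0.25 for each pair, also after adjustment over the pairs, which is the smallest value that 3 libraries allow.

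Other genes of the pathway were read from lists. Of each list the 2 genes highest by CPM, not corrected for length, are named. Of 6 genes listed as other SRF partners these were the ternary complex factors Elk3 (265 ± 54.1; 299, 293 and 202) and Elk1 (71.0 ± 9.73). Per length Fhl2 (25.3 CPM per kb) lay between Elk3 (58.2) and Elk1 (13.2). Elk3 was lowest in replicate 3, opposite to Srf. Myocd, the SRF cofactor specific to heart and smooth muscle, had 0.0833, 0.0690 and 0.123 CPM. Mamstr, also on this list though its link to SRF was not examined, had 0.2499, 0.241 and 0.0919.

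Genes known to respond to SRF were detected throughout both lists. All 14 actin-responsive SRF targets outside the members were detected, with a median of 67.6 CPM per kb. By CPM the highest were Vcl, an adhesion protein (1150 ± 29.1 CPM), and Cyr61, a matrix protein (969 ± 19.9), and per length Cyr61 (479.9 CPM per kb) lay above Vcl (140.4). All 14 varied beyond counting noise, against 65.7% of all genes tested and 86.9% of those at 100 CPM or more. By 1.5-fold or more 2 of them varied, against 18.3% of all genes tested and 8.25% of those at 100 CPM or more. Most of the 14 stood at 100 CPM or more, so the second share of each pair is the nearer background. Wdr1, a cofilin partner, stood at 416, 403 and 604 CPM and Csrp2 at 222, 216 and 147. Both lay at the threshold, at 1.51-fold, and 1 passed it with total counts only and 0 with replicates 1 and 2 summed. All 8 targets of the ternary complex type were detected. By CPM the highest were Egr1 (439 ± 5.34) and Mcl1 (181 ± 2.82), neither of which differed between libraries beyond counting noise (adjusted p = 0.34 and 0.48). Of these 8 genes 6 varied, and 3 by 1.5-fold or more, each highest in replicate 3. Fos (89.2, 94.1 and 188), Fosb (43.6, 44.0 and 93.4) and Egr2 (7.77, 7.69 and 16.7) were the 3, and without replicate 3 none of the list passed that size. All 14 genes of the Arp2/3 complex, capping and severing list were detected, with Gsn (604 ± 95.5) and Arpc1b (448 ± 14.4) highest by CPM. Of these 11 varied, and 0 by 1.5-fold or more, and most of this list too stood at 100 CPM or more. Fhl2, Wdr1, Csrp2, Fos, Fosb and Egr2 were named after their values were seen.

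Differences between libraries were tested in each gene with a mean count of at least 10, by a chi-square test of its 3 counts after TMM scaling, adjusted over all 12737 genes tested. It asks whether libraries differ by more than the counting of reads allows, not whether conditions do. Of the 36 members tested, 31 (86.1%) varied, against 65.7% of all genes tested. Deeply counted genes pass this test with small differences, and among genes of 100 CPM or more it called all 25 members and 86.9% of all genes. The sizes were small. Only 3 members varied by 1.5-fold or more between the highest and lowest library (8.33%, against 18.3% of all genes tested), and of the 25 members at 100 CPM or more only Tmsb4x did, against 8.25% of all such genes. The median highest-to-lowest ratio of those 25 was 1.10, against 1.16 for all genes at that level.

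The 3 members past 1.5-fold were all lowest in replicate 3. Cnn1 was 2.06-fold higher in its highest library than in replicate 3 (adjusted p = 5.3e-17), Acta1 1.70-fold (adjusted p = 0.0019) and Tmsb4x 1.55-fold. The called members just below that size were Srf (1.47), Myl12b (1.44) and Tmsb10 (1.35). Of the 31 varying members, 12 were lowest in replicate 3 (33.3% of those tested, against 31.5% of all genes tested) and 18 were highest there (50%, against 33.1%). These are shares of genes tested, so they also carry the higher call rate of the members. Among the 8369 genes called, 4007 were lowest in replicate 3 and 4215 highest there. The 18 include Actb, Actg1, Acta2, Flna, Myh9, Actn4, Tpm2, Smtn and Srf, and the 12 include Tagln, Cnn1, Cnn3, Tpm4, Myh10, Myl6, Myl12a, Myl12b and both thymosins. Pfn1 was the remaining one. Members of one family went both ways, as Cnn2 and Cnn3, Myh9 and Myh10, or Tagln2 and Tagln did. The median shift of the members from their 3-library mean was 0.01, −0.02 and 0.02 on the log2 scale, against 0.00 for all genes in each library.

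**Figure D4:**
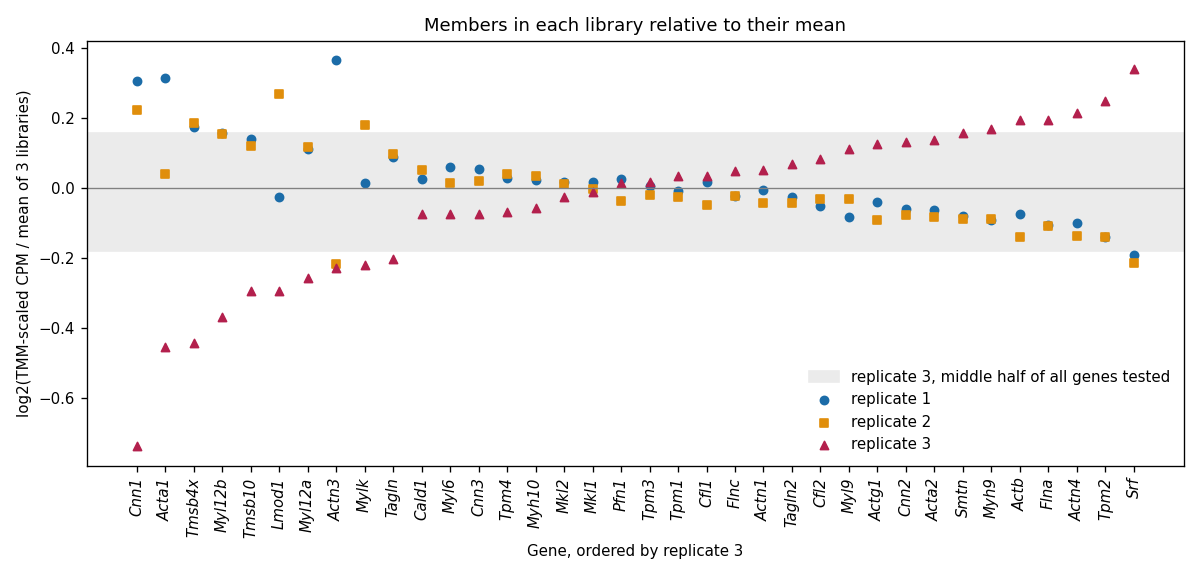
Level of each tested member in each library as the log2 ratio of TMM-scaled CPM to its 3-library mean, ordered by replicate 3; the band holds the middle 50% of all genes tested in replicate 3. Replicates 1 and 2 lie close together for most genes, and replicate 3 runs from −0.74 for Cnn1 to 0.34 for Srf.

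Nearly all of this variation came with replicate 3. With replicates 1 and 2 alone, 4 of the 36 members (11.1%) differed beyond counting noise, against 2.01% of all genes. These were Actb, Actg1, Cfl1 and Pfn1, each lower in replicate 2, with ratios of only 1.04 to 1.05. Deeply counted genes pass with such small differences. The median absolute log2 ratio between these 2 libraries was 0.02 for the members, smaller than the 0.06 for all genes. Counting noise in this ratio shrinks with depth, and genes of the members' depth were not compared. Without replicate 3, 0 members varied by 1.5-fold. The labels give no batch, date or culture for replicate 3, so its difference and any such factor cannot be told apart. Across the 12646 tested genes with a length, the shift in replicate 3 had a Spearman correlation of 0.02 with transcript length and 0.00 with GC content. Over the 36 members these were 0.20 and 0.23. They are descriptions across genes, which are not independent replicates.

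**Figure D5:**
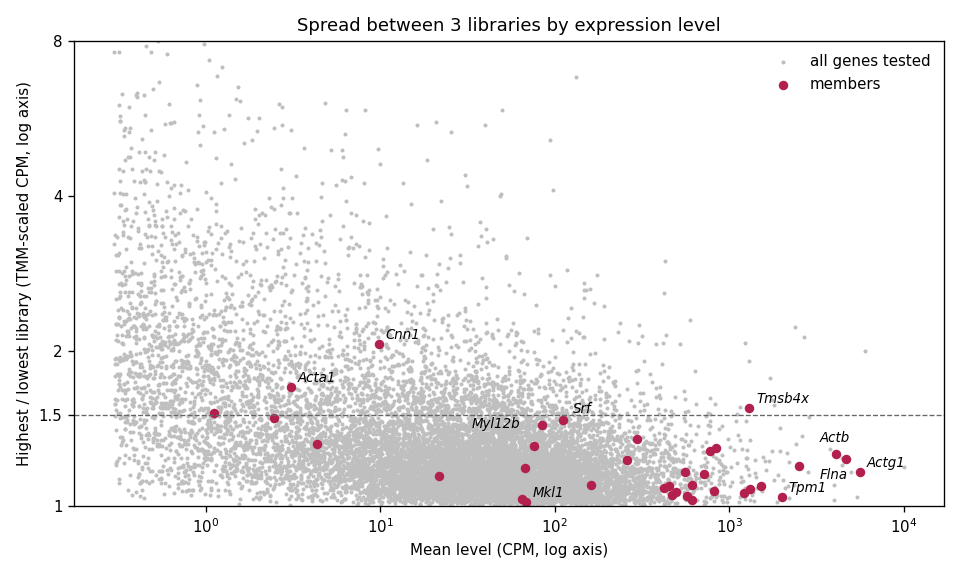
Ratio of the highest to the lowest library against mean CPM, both on log axes, for all genes tested (grey) and the members (red), with the dashed line at 1.5-fold; 51 genes above 8-fold are not drawn. Cnn1, Acta1 and Tmsb4x pass 1.5-fold with a call, and most abundant members lie between 1 and 1.3.

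The muscle-type members were set beside markers of muscle and of other cells. Of 8 smooth muscle markers, 5 of which are members (Myh11, Cnn1, Lmod1, Actg2 and Smtn), 4 were detected: Smtn (15.4 CPM per kb), Cnn1 (3.57), Synpo2 (1.32; 14.0, 12.6 and 25.3 CPM) and Lmod1 (0.623). Their summed level ran from 91.1 to 108 CPM. The other 4, Myh11, Actg2, Myocd and Des, the muscle intermediate filament, lay near 0, with Des at 2, 0 and 0 counts. Of 15 striated muscle markers, Tnnt2 (4.75 ± 0.290 CPM) was detected and Tnni1 (0.838 ± 0.311) was split. The myogenic factors Myod1, Myf5 and Myog had 0 counts (a level of up to 0.103 CPM could give 0 in replicate 2), and the whole list summed to between 7.002 and 7.94 CPM. Acta2 and Tagln thus stood beside a smooth muscle list that was detected in part.

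Acta2 and Tagln are also genes of pericytes, fibroblasts and myofibroblasts. Of 11 markers of those cells 7 were detected, with Col1a1 (2045, 1957 and 1149 CPM) and Col1a2 (1497, 1482 and 717) highest by CPM and a sum of 2250 to 4345 CPM that was lowest in replicate 3. Kcnj8 (0 counts), Abcc9 and Lum, other markers on this list, were at or near 0. In replicate 3 Tagln and Cnn1 were lower and Acta2 was higher, and the part of these collagens or of other cells in that was not tested. None of 5 microglia and macrophage markers was detected (sum 0.276 to 0.766 CPM), and of 5 endothelial markers Cdh5 (351 ± 42.2) and Kdr (1.61 ± 0.893) were, with Pecam1 near 0 and Cldn5 at 0 counts. All 4 neural stem or glioma markers were detected, Vim (5404 ± 100.1), Cd44 (870.1 ± 75.05), Nes (427 ± 20.2) and Sox2 (113 ± 2.85), of which Vim and Cd44 are also widely expressed in mesenchymal cells. Most markers of mature brain cells were not detected, and the brain label was not tested further. Gfap, Aqp4, Olig1, Olig2 and Rbfox3 had 0 counts, and 2 of 6 astrocyte markers (Aldh1l1, 5.58 ± 0.852, and S100b, 4.26 ± 1.22), 0 of 5 oligodendrocyte lineage markers and 1 of 4 neuron markers (Map2, 4.18 ± 1.31) were detected.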

How the data were processed

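RNA-seq of 3 SB28 libraries was used. The authors deposited 1 table per library with unnormalised read counts for each symbol, with 5 summary lines that were left out of totals. Per the submitters' processing notes Bowtie2 2.2.4, HTSeq and mm10 were used, with no role or option; the annotation and strand setting are not given in the sources used here. Reads placed at more than 1 position (8.93%, 8.86% and 9.58%) stand in a summary line, which lowers the counts of genes that have close copies.

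From the counts, CPM were computed over gene counts. Symbols were matched to GENCODE M21 (GRCm38, the assembly mm10 names), 23358 directly, 668 through RefSeq synonyms (Mkl1 and Mkl2 among them) and 395 not. Length is the union of a gene's exons. TMM factors came from edgeR 4.0.16, DESeq2 1.42.0 size factors were an alternative, under R 4.3.3 and with Python 3.11.15 and scipy 1.17.1. The chi-square test (2 degrees of freedom, Benjamini-Hochberg, threshold 0.05, over every gene whose counts averaged 10 or more) was tested on simulated data. Alternatives were scaling, filters, length, pseudocount and left-out libraries. A count of 0 allows up to 3 counts; intervals and such limits cover counting error only, since PCR copies are not independent molecules. With 1 group no comparison between conditions was possible, and proteins were not compared. The members, lists and tests were chosen with earlier results of these data known. Named are all members and, of each list, the 2 genes of highest mean CPM plus members below 1 CPM in all libraries where fewer than 4 exist; others were chosen after their values were seen. Of the lists planned, 1 is not reported here.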

Additional observations from a re-analysis of the deposited data

How the results depend on the processing

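Between 32 and 36 members were detected under the alternatives tried (35 as reported), and 14 of the 16 called pair ratios kept their call and direction under every alternative run. The Tpm4 to Tpm1 log2 ratio turned from 0.94 to −0.18 with the longest transcript and −0.62 without length. Myl12a to Myl6 (0.36) lost its call with replicates 1 and 2 averaged (0.32), and leaving out 1 library gave 0.31 to 0.45. With the longest transcript that ratio was 1.09. Myl12b to Myl9 (0.69) passed with the longest transcript (1.02) and without length (1.94), and leaving out 1 library gave 0.56 to 0.92. Actn1 to Actn4 (0.23) gave 0.14 with the longest transcript and 0.09 without length, and leaving out 1 library gave 0.19 to 0.32. The cause was not tested. The 31 varying members became 4 to 32 when 1 library was left out, with 4 without replicate 3. The 3 past 1.5-fold became 10 at a threshold of 5 to 4, 1 at 2-fold, and 0 to 3 with 1 library left out. The calls of Myl9 and Tpm3 were lost with total counts only (adjusted p = 0.055 and 0.19). The mean member shift in replicate 3 was −0.0431, beside a median of 0.02. With 1 mismatch, 12 members had a CArG box. Alternatives for the mismatch, member levels and pathway lists were chosen after seeing the data. With 1 library left out, the varying genes numbered 0 to 4 (other partners), 2 to 13 (actin-responsive), 0 to 6 (ternary complex) and 0 to 12 (Arp2/3), each lowest without replicate 3. Past 1.5-fold these were 0, 0 to 1, 0 to 3 and 0. At 5 to 4 they were 3 other partner, 7 actin-responsive and 1 Arp2/3 gene, and at 2-fold 0 actin-responsive genes. Actin-responsive genes past 1.5-fold numbered 1 with total counts only and 0 with replicates 1 and 2 summed. No paired analysis was possible because the labels give 1 group. Counts of 7 or fewer per library limit what can be said of Actc1, Actg2, Actn2, Myh11 and Myh14.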
